A study of Mus musculus with 2 samples.

Results

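Nodal is a secreted TGF-beta family ligand that induces the primitive streak, mesoderm and endoderm in the gastrulating mouse embryo. It signals through activin receptors and Smad2 and Smad3, which act with the forkhead factor Foxh1 on target genes. *Nodal* and its antagonists *Lefty1* and *Lefty2* are themselves among these targets, so the pathway amplifies and restrains itself. Expression of 9 genes of this pathway, chosen by symbol from the 32285 genes counted, was examined per cell population in E7 *Yap1* cKO and control embryos. They are the ligands *Nodal*, *Gdf3* and *Gdf1*, the antagonists *Lefty1* and *Lefty2*, the co-receptor *Tdgf1* (Cripto), the transcription factor *Foxh1*, and the proprotein convertases *Furin* and *Pcsk6*, which cleave the Nodal precursor.

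Pools of mouse embryos at embryonic day 7 were profiled by 10x 3' single-cell RNA-seq, with 1 library for each. The study took the yolk sacs for genotyping, so the embryos may not have been whole. The *Yap1* cKO pool held 3 Sox2cre:Yap1 flox/flox embryos and the control pool 4 Sox2cre:Yap1 flox/+ embryos, so *Yap1* was heterozygous in the control epiblast, although the sample labels call that library WT. Sox2-Cre recombines in the epiblast and what derives from it, and extraembryonic lineages that arise earlier are not its target. The study holds, however, that extraembryonic tissues of its flox/flox embryos, control and cKO alike, are probably heterozygous for *Yap1*, through deletion of the paternal allele. Embryos were pooled before dissociation, so each genotype is a single sample. Differences are therefore given as sizes with counting intervals and no test between genotypes was possible.

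After filtering, 790 control and 860 *Yap1* cKO cells remained, with medians of 75697 and 80559 unique molecular identifiers (UMIs, one per captured transcript). Both libraries shared 2 of all barcodes and 0 of those kept. Both pools are labelled female, but Y-linked UMIs marked 408 control and 134 *Yap1* cKO cells, while *Xist* marked 333 and 667. Ratios were therefore also taken within the Y-bearing and the Xist-bearing cells, called the sexes below. With 4 control and 3 *Yap1* cKO embryos pooled, each such set of cells came from few embryos. A difference between the sexes thus cannot be told apart from one between individual embryos. Cells were assigned to populations by marker genes, none of which is one of the 9 genes, and the names are rebuilt. There were 263 control and 251 *Yap1* cKO epiblast-like cells. In them, *Yap1* was at 29.4 CPM (UMIs scaled to the same total in each population) for control and 1.12 CPM for *Yap1* cKO cells, a ratio of 0.0379 (0.0250 to 0.0554, 95% interval of counting error only), so the targeted gene was low in the library labelled as its deletion. *Yap1* was at 0.850 (0.714 to 1.01) of control in visceral endoderm-like cells, at 0.523 (0.322 to 0.848) in anterior visceral endoderm-like cells and at 0.698 (0.593 to 0.820) in extraembryonic ectoderm-like cells.

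Epiblast-like cells were parted by *Fgf8*, a ligand that comes on toward the streak. The Fgf8-low cells numbered 149 among control and 76 among *Yap1* cKO cells, against 114 and 175 Fgf8-positive cells. The parts thus came in different proportions in the libraries, and *Fgf8* itself was 2.27 (2.14 to 2.41) times as high in the *Yap1* cKO epiblast-like cells, so the line between them is drawn on a gene that differed. Further along, 39 and 66 primitive streak-like cells carried *T* or *Mixl1*, and 84 and 111 nascent mesoderm-like cells passed on *Mesp1*, *Mesp2*, *Tbx6* and related markers. A small group of 22 control and 14 *Yap1* cKO embryonic cells with *Sox17* was taken apart after its *Cer1* and *Lefty1* values had been seen. *Cer1*, *Lefty1*, *Sox17*, *Hhex* and *Lhx1* were among its leading genes, and it is called by *Sox17* only. The other populations were Foxf1 and Hand1 mesoderm, blood and endothelial progenitors, node and axial mesendoderm, visceral endoderm with an anterior part in which *Cd8a* was among the leading genes, and extraembryonic ectoderm.

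*Nodal* (ENSMUSG00000037171) lies on chromosome 10 from 61417972 to 61425338 of GRCm38, on the forward strand, in 3 exons. *Tdgf1* (ENSMUSG00000032494) lies on chromosome 9 from 110939603 to 110946158, on the reverse strand. *Lefty2* (ENSMUSG00000066652, from 180893108 to 180899103) and *Lefty1* (ENSMUSG00000038793, from 180935022 to 180938400) are neighbours on chromosome 1, with 35918 bases between them. RefSeq promoter windows were found for 5 of the 9 genes. Those of *Nodal* and *Tdgf1*, the ligand and its co-receptor, are shown because their ratios differed between the libraries. Each is the 250 bases before the annotated start, read on the gene's strand, from chr10:61417722-61417971 and chr9:110946159-110946408 of GRCm38.p6. Capitals mark CAGAC, a short Smad-binding motif, on either strand.
Nodal: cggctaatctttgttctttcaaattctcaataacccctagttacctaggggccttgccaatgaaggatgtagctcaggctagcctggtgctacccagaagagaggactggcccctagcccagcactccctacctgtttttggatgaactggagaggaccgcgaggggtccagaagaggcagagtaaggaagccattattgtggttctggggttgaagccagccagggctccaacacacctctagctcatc
Tdgf1: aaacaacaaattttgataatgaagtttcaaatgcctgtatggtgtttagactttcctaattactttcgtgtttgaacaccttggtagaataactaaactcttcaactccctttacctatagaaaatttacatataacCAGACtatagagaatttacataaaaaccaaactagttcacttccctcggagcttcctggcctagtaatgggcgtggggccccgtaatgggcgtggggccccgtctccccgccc
Neither window holds GGAATG, the motif of the TEAD factors through which YAP1 acts, on either strand, and 12.6% of all 32851 windows do. AATCCACA, a FoxH1 motif found in 0.718% of windows, and the Smad palindrome GTCTAGAC, found in 0.167%, are also in neither. CAGAC is in 42.2% of all windows and once in that of *Tdgf1*, 113 bases before the start. Among the 7 windows of the 5 genes, GGAATG was found only in 1 of *Gdf1*, 216 bases before its start. These letters were searched in 250 bases only, which do not include the intronic and distal enhancers of *Nodal*.

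**Figure D1:**
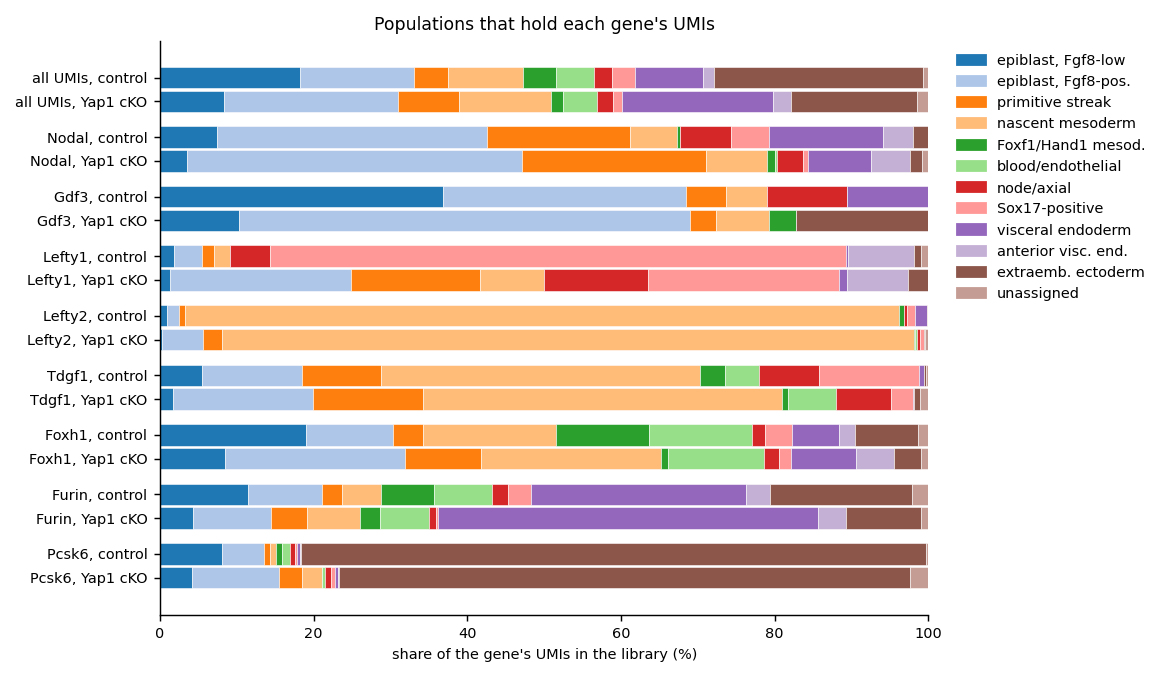
Share of each gene's UMIs (x axis, percent) that lay in each cell population, with 1 bar per gene and library and the share of all UMIs on top. *Lefty2* lay almost wholly in nascent mesoderm-like cells (93.0% and 90.1%), *Pcsk6* in extraembryonic ectoderm-like cells (81.3% and 74.3%), and the *Lefty1* share of Sox17-positive cells was 74.9% for control and 24.9% for *Yap1* cKO cells.

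The 9 genes were expressed in different places. *Nodal* was highest in primitive streak-like cells and next in Fgf8-positive epiblast, node and anterior visceral endoderm-like cells. *Lefty2* was a gene of the nascent mesoderm, and *Tdgf1* was spread over streak, mesoderm, node and Sox17-positive cells. *Lefty1* was highest in Sox17-positive cells, followed by anterior visceral endoderm-like cells in the control library and by node cells in the *Yap1* cKO one. *Furin* was highest in visceral endoderm-like cells and *Pcsk6* in extraembryonic ectoderm-like cells. *Gdf1* had 0 UMIs in every barcode of both libraries.

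In epiblast-like cells, 7 of the 9 genes had at least 100 UMIs over both libraries, the minimum for a gene to be compared. A gene that is high in either library reaches this sum more easily. *Lefty1* did so mainly through the *Yap1* cKO library, with 24 UMIs for control and 92 for *Yap1* cKO cells. The same holds for *Lefty2*, with 46 and 113 UMIs. *Nodal*, *Lefty1* and *Lefty2* were at least 1.5 times as high in the *Yap1* cKO library and none was as far below. Of all 11442 genes with as many UMIs, 1.34% lay as far above and 1.99% as far below. The median ratio over the 7 genes was 1.18, and over all genes 0.966. *Gdf3* had too few UMIs to enter this count. With the Sox17-positive cells kept among the epiblast-like cells, *Lefty1* was at 1.18 (0.885 to 1.59) and would not be counted. *Lefty2* was at 1.05 among Y-bearing cells and 3.26 among Xist-bearing ones.

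*Nodal*, the ligand of the pathway, was low in Fgf8-low epiblast-like cells, at 4.39 CPM (52 UMIs) for control and 7.82 CPM (53 UMIs) for *Yap1* cKO cells, with a ratio of 1.78 (1.19 to 2.67). In Fgf8-positive cells, it was at 25.8 CPM (248 UMIs) and 36.6 CPM (671 UMIs), a ratio of 1.42 (1.23 to 1.65). The *Yap1* cKO cells were thus higher in either part, and both counting intervals leave out 1. In Fgf8-low cells, *Nodal* was the 1 gene of 4 with enough UMIs past 1.5-fold upward, where 0.866% of all genes were, and *Pcsk6*, at 0.648 (0.421 to 0.977), was the 1 as far below, where 1.51% were. In Fgf8-positive cells, these were *Lefty1* and *Lefty2* of 6 genes with enough UMIs, against 1.19% of all genes, and 0 were as far below, against 2.26%. *Lefty1*, on 16 and 87 UMIs, and *Lefty2*, on 29 and 109, reached the minimum mainly through the *Yap1* cKO library. *Pcsk6* in Fgf8-low cells, on 89 and 33, reached it mainly through the control library. Over both parts together, *Nodal* was at 14.0 and 28.9 CPM, with a ratio of 2.07 (1.80 to 2.37), which is above that within each part. With the parts weighted by the numbers of control cells, the levels were 13.7 and 20.3 CPM and the ratio 1.49. The larger pooled value therefore goes with the larger share of Fgf8-positive cells in the *Yap1* cKO library.

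These values also differed between the Y-bearing and the Xist-bearing cells. In epiblast-like cells, the *Nodal* ratio was 2.80 (2.24 to 3.50) among Y-bearing cells and 1.64 (1.36 to 1.98) among Xist-bearing ones. Within Fgf8-positive cells alone, it was 1.59 (1.25 to 2.03) and 1.21 (0.996 to 1.49). The direction was shared, and the interval in Xist-bearing Fgf8-positive cells reached 1.

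Detection in single cells was compared after thinning each cell to 38000 UMIs, since the *Yap1* cKO Fgf8-positive cells were deeper, with medians of 94021 against 78247 UMIs. Of 112 control Fgf8-positive cells, 57.1% (47.5 to 66.5) then had a *Nodal* UMI, as did 61.3% (53.5 to 68.7) of the 168 from the *Yap1* cKO. Unthinned, these shares were 69.3% and 84.0%. The intervals of the thinned shares overlap. They cover the counting of cells within each library only, so a difference between the genotypes was not tested. Cells with 3 or more *Nodal* UMIs made up 14.3% of the control and 21.4% of the *Yap1* cKO cells, a difference for which no interval was taken. Over all epiblast-like cells, the thinned share was 31.7% (26.0 to 37.7) for control against 48.6% (42.1 to 55.1) for *Yap1* cKO cells. The extraembryonic ectoderm-like cells, in which no *Nodal* is due, gave 2.76% and 3.74%, at median depths of 83850 and 99416 UMIs before thinning. Unthinned, 4.79% and 12.5% of them had a *Nodal* UMI. Their levels were 0.796 CPM (14 UMIs) for control and 1.72 CPM (23 UMIs) for *Yap1* cKO cells, a ratio of 2.165 (1.07 to 4.55). Some of these UMIs lay in cells with at least 50 CPM of the epiblast gene *Pou5f1*. In the control, 3 such cells held 8 of the 14 UMIs, and in the *Yap1* cKO library 8 such cells held 8 of the 23. This low level was thus also higher in the *Yap1* cKO library, but the ratio without those cells was not taken.

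**Figure D2:**
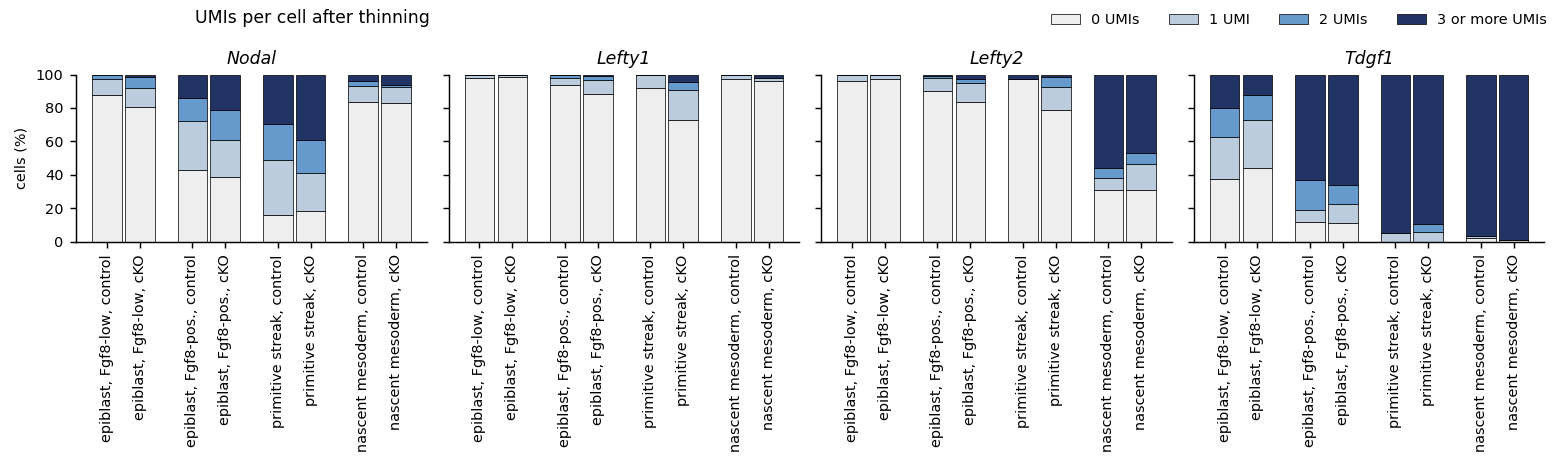
Share of cells (y axis, percent) with 0, 1, 2 or 3 and more UMIs of *Nodal*, *Lefty1*, *Lefty2* and *Tdgf1* after thinning to 38000 UMIs, in 4 populations and both libraries. In Fgf8-positive epiblast-like cells 0 UMIs of *Nodal* were about as frequent in both libraries, while 3 or more were in 14.3% of the control and 21.4% of the *Yap1* cKO cells.

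In primitive streak-like cells, where *Nodal* reached its highest level, it was at 46.3 CPM (131 UMIs) for control and 57.3 CPM (366 UMIs) for *Yap1* cKO cells, with a ratio of 1.24 (1.01 to 1.52). A *Nodal* UMI was found in 83.8% (68.0 to 93.8) of the control and 81.8% (70.4 to 90.2) of the *Yap1* cKO cells after thinning. Unthinned, these shares were 92.3% and 95.5%, so that most streak-like cells carried the transcript in both libraries. The sexes were alike, at 1.17 (0.786 to 1.75) among Y-bearing cells and 1.18 (0.919 to 1.53) among Xist-bearing ones, and both of these intervals include 1. The control order of levels ran from the streak at 46.3 CPM to the node at 30.0, anterior visceral endoderm at 29.6, Fgf8-positive epiblast at 25.8, visceral endoderm at 18.1 and Sox17-positive cells at 18.0 CPM. Each of these overlapped its next neighbour in the interval of its level, except Fgf8-positive epiblast and visceral endoderm. In the *Yap1* cKO order, the streak at 57.3 CPM was followed by anterior visceral endoderm at 43.1, Fgf8-positive epiblast at 36.6 and node at 30.7 CPM, each overlapping the next.

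In nascent mesoderm-like cells, which have left the streak, *Nodal* was at 6.80 CPM (43 UMIs) and 12.6 CPM (123 UMIs), a ratio of 1.85 (1.30 to 2.68). Of the 4 genes with enough UMIs there, *Nodal* and *Furin* were at least 1.5-fold higher, beside 1.77% of all genes, and 0 were as far below, beside 1.46%. Both *Nodal*, on 43 and 123 UMIs, and *Furin*, on 45 and 116, reached the minimum mainly through the *Yap1* cKO library. Thinned shares overlapped, at 16.7% (9.42 to 26.4) of the control and 16.8% (10.3 to 25.3) of the *Yap1* cKO cells, and with every cell thinned the ratio of levels was 1.24. The sexes gave 1.38 (0.711 to 2.62) and 2.69 (1.55 to 4.97). In node cells, *Nodal* was at 30.0 and 30.7 CPM on 47 and 53 UMIs, a ratio of 1.03 (0.679 to 1.55). Sox17-positive cells had 35 and 9 UMIs, a ratio of 0.536 (0.227 to 1.14). In Foxf1 and Hand1 mesoderm there were 2 and 15 UMIs, 9 of the latter from 1 cell, and blood and endothelial progenitors had 0 and 4.

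Pooled *Nodal* was below control in the visceral endoderm outside its anterior part. In visceral endoderm-like cells, *Nodal* was at 18.1 CPM (104 UMIs) for control and 7.97 CPM (127 UMIs) for *Yap1* cKO cells, with a ratio of 0.440 (0.337 to 0.576). It was the 1 of 2 genes with enough UMIs, *Furin* being the other, to lie at least 1.5-fold below control, as 3.04% of all genes did, and 0 were as far above, as 1.96% were. The 5 cells with the most *Nodal* held 64.4% of its UMIs in the 73 control cells and 67.7% in the 194 *Yap1* cKO cells, and 10 cells of each library had 3 or more, so few cells set the level. The ratio was 1.66 (0.698 to 3.82) in Y-bearing cells, on 16 and 11 UMIs, and 0.340 (0.254 to 0.455) in Xist-bearing cells. A *Nodal* UMI was seen in 23.9% (14.3 to 35.9) and 11.1% (6.82 to 16.8) of thinned cells. The anterior part, of 18 and 25 cells, had 29.6 and 43.1 CPM, with a ratio of 1.46 (0.934 to 2.33). There it was 4.61 (1.43 to 23.6) in Y-bearing cells, on 3 and 30 UMIs, and 1.58 (0.920 to 2.77) in Xist-bearing ones.

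**Figure D3:**
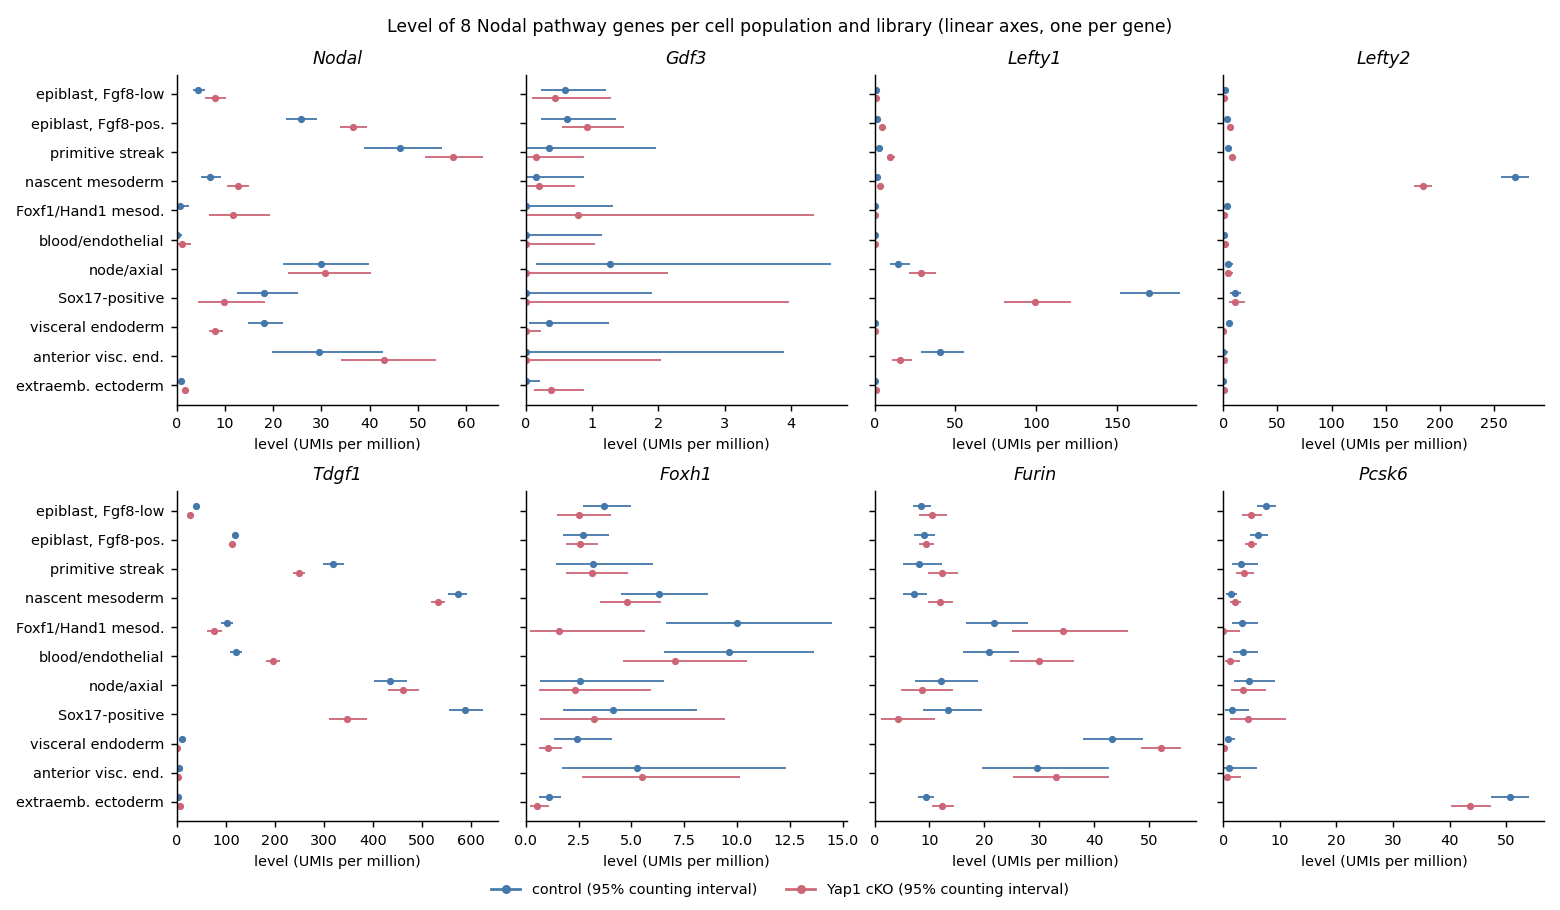
Level of 8 genes (x axis, CPM, a linear axis of its own for each gene) in 11 cell populations (y axis) of the control (blue) and *Yap1* cKO (red) library, with 95% counting intervals and 1 library per genotype. *Gdf1* is left out at 0 UMIs. *Nodal* lay to the right of control in epiblast, streak and nascent mesoderm cells and to the left in visceral endoderm cells, and *Lefty2* stood out in nascent mesoderm only.

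*Lefty1* and *Lefty2* encode secreted antagonists that bind Nodal and its co-receptor. Their 3' ends are alike in part: of the 50-base words in the last 500 bases of their transcripts, 20.6% of those of *Lefty1* occur in *Lefty2* and 14.6% the other way, and reads from these stretches cannot be told apart. *Lefty2* was nevertheless far from *Lefty1* in its place of expression, with 93.0% of its control UMIs in nascent mesoderm-like cells, where *Lefty1* had 9 UMIs.

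*Lefty1* was rare in epiblast-like cells, with 24 UMIs for control and 92 for *Yap1* cKO cells, at 1.12 and 3.67 CPM, with a ratio of 3.28 (2.08 to 5.38). Fgf8-positive cells held most of them, at 1.66 CPM (16 UMIs) and 4.75 CPM (87 UMIs), a ratio of 2.86 (1.67 to 5.22). Both sexes were above 1, at 1.57 (0.641 to 4.20) among Y-bearing cells and 3.50 (1.60 to 9.07) among Xist-bearing ones, though the former interval includes 1. After thinning, 6.25% (2.55 to 12.4) of the control and 11.9% (7.43 to 17.8) of the *Yap1* cKO Fgf8-positive cells had a *Lefty1* UMI, against 1.66% and 3.74% in extraembryonic ectoderm-like cells. Blood and endothelial progenitors had a *Lefty1* UMI in 0 of 38 control and 0 of 39 *Yap1* cKO cells, which, taking 3 cells as the limit of a count of 0, allows a share of cells with a UMI of up to 7.89% and 7.69%.

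In primitive streak-like cells, *Lefty1* was at 2.48 CPM (7 UMIs in 4 of 39 cells) for control and 9.71 CPM (62 UMIs in 23 of 66 cells) for *Yap1* cKO cells, with a ratio of 3.92 (1.79 to 10.2). Thinned shares were 8.11% (1.70 to 21.9) and 27.3% (17.0 to 39.6). In node cells, it was at 14.7 and 29.0 CPM, with a ratio of 1.98 (1.18 to 3.39), and 1 *Yap1* cKO cell held 34.0% of the UMIs there. Of the control node cells, 13 of 21 were Y-bearing, against 0 of 20 from the *Yap1* cKO, and within Xist-bearing cells the ratio was 1.24 (0.646 to 2.52).

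The Sox17-positive cells ran the other way. *Lefty1* was at 170 CPM (329 UMIs in 17 of 22 cells) for control and 98.9 CPM (92 UMIs in 8 of 14 cells) for *Yap1* cKO cells, with a ratio of 0.583 (0.458 to 0.737). The ratio was 0.413 (0.314 to 0.538) in Xist-bearing cells and 2.59 (1.45 to 4.48) in Y-bearing cells, on 41 and 21 UMIs from 5 and 2 cells, so the direction was not shared between the sexes. *Lefty1* and *Tdgf1* were the genes with enough UMIs, and both lay at least 1.5-fold below control, as 4.11% of all genes did, with 0 as far above, where 4.54% were. *Cer1*, another secreted Nodal antagonist, was higher in the *Yap1* cKO Sox17-positive cells, at 606 and 1136 CPM, with a ratio of 1.88 (1.73 to 2.04), and above 1 in both sexes (1.85 and 1.71). The antagonists thus lay on opposite sides of control in these few cells.

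Most of these Sox17-positive cells would otherwise have passed as streak (13 control and 7 *Yap1* cKO cells) or as Fgf8-positive epiblast (5 and 3 cells). When they were left there, *Lefty1* in the streak was at 61.3 and 14.9 CPM, with a ratio of 0.242 (0.191 to 0.306), since 97.2% of the control UMIs lay in the Sox17-positive cells. In Fgf8-positive cells it was at 7.62 and 5.95 CPM, with a ratio of 0.780 (0.577 to 1.06), on the other side of 1 from the 2.86 given above though with an interval that includes 1, and over all epiblast-like cells it was 1.18 (0.885 to 1.59). The *Nodal* ratio in the streak moved from 1.24 (1.01 to 1.52) to 1.43 (1.18 to 1.73), as the control level fell from 46.3 to 37.9 CPM. Over epiblast-like cells it hardly moved, at 2.04 (1.78 to 2.34). The direction of *Lefty1* in the streak and in Fgf8-positive epiblast-like cells therefore rests on where these cells are counted.

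**Figure D4:**
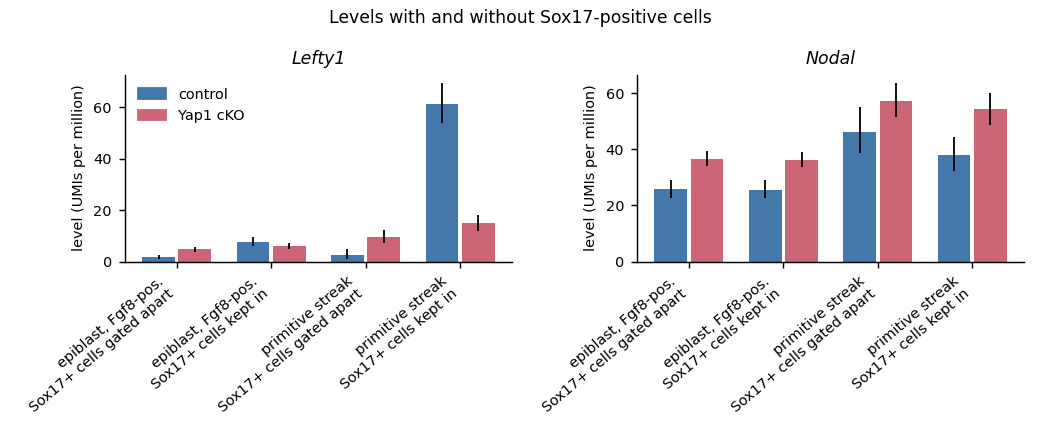
Level (y axis, CPM, with 95% counting intervals) of *Lefty1* and *Nodal* in Fgf8-positive epiblast and primitive streak cells, with the Sox17-positive cells gated apart or kept in, for the control (blue) and *Yap1* cKO (red) library. *Lefty1* in the streak was 2.48 against 9.71 CPM with these cells apart and 61.3 against 14.9 CPM with them kept, while the order of *Nodal* was unchanged in these bars.

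In anterior visceral endoderm-like cells, which secrete Nodal antagonists from the anterior side of the embryo, *Lefty1* was at 40.2 CPM (38 UMIs) for control and 16.02 CPM (29 UMIs) for *Yap1* cKO cells, with a ratio of 0.399 (0.237 to 0.664). A single control cell held 25 of the 38 UMIs and a single *Yap1* cKO cell 13 of the 29. After thinning, 4 of 17 control cells had a *Lefty1* UMI, as did 6 of 24 from the *Yap1* cKO. Control Xist-bearing cells held 28 UMIs and those of the *Yap1* cKO held 0, while in Y-bearing cells the ratio was 1.24 (0.584 to 2.88), so the lower level was not shared by the sexes.

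*Lefty2* was the most localised of the genes with many UMIs. The nascent mesoderm-like cells had it at 270 CPM (1704 UMIs) for control and 185 CPM (1805 UMIs) for *Yap1* cKO cells, with a ratio of 0.685 (0.640 to 0.732), short of 1.5-fold. It was below 1 in Y-bearing (0.668, 0.566 to 0.785) and Xist-bearing cells (0.577, 0.533 to 0.626). The share of cells with a *Lefty2* UMI after thinning was 69.0% (58.0 to 78.7) and 69.2% (59.5 to 77.7), and 56.0% against 46.7% of cells had 3 or more. The shares of positive cells lay within counting error of each other.

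Before the mesoderm, pooled *Lefty2* levels were above control in Fgf8-positive and streak-like cells. In Fgf8-positive epiblast-like cells, it was at 3.01 CPM (29 UMIs) and 5.95 CPM (109 UMIs), a ratio of 1.98 (1.30 to 3.09), and in the streak at 4.60 CPM (13 UMIs) and 7.51 CPM (48 UMIs), a ratio of 1.63 (0.872 to 3.29). In the control streak, 9 of the 13 UMIs came from 1 cell, and the streak ratio was 0.474 (0.125 to 1.57) among Y-bearing cells and 3.35 (1.22 to 12.8) among Xist-bearing ones, so its direction was not shared. In Fgf8-positive cells these were 0.935 (0.450 to 1.98) and 2.604 (1.41 to 5.25). Fgf8-low cells had 17 and 4 UMIs, a ratio of 0.411 (0.101 to 1.26). The value over all epiblast-like cells, 2.10 (1.48 to 3.03), was 1.05 (0.566 to 1.92) among Y-bearing cells and 3.26 (1.84 to 6.22) among Xist-bearing ones, so that it rested on the latter. In extraembryonic ectoderm-like cells, a *Lefty2* UMI was in 0 of 188 control cells, which allows a share of cells with a UMI of up to 1.60% (3 cells), and in 2 of 112 *Yap1* cKO cells.

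**Figure D5:**
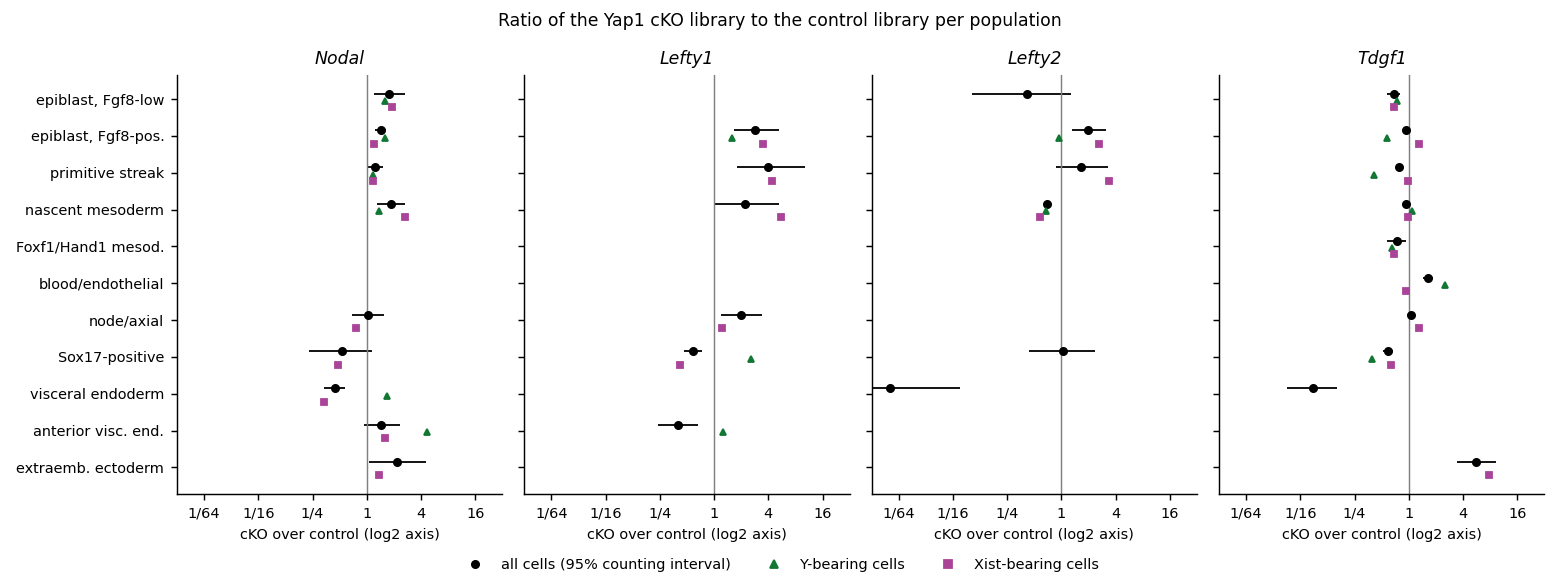
Ratio of the *Yap1* cKO to the control level (x axis, log2 scale) of *Nodal*, *Lefty1*, *Lefty2* and *Tdgf1* in 11 populations. Circles give all cells with 95% counting intervals, triangles Y-bearing and squares Xist-bearing cells, where at least 20 UMIs were counted and both levels were above 0. The interval of *Lefty2* in visceral endoderm runs past the left edge. Circles of *Nodal* lay right of 1 in the epiblast, streak and nascent mesoderm and left of it in visceral endoderm, and those of *Lefty1* right of 1 in Fgf8-positive epiblast and streak and left in Sox17-positive and anterior visceral endoderm cells.

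Ligand and antagonists were also counted in the same thinned cells. Among Fgf8-positive epiblast-like cells with a *Nodal* UMI, 6.25% (1.73 to 15.2) of 64 control cells had a *Lefty1* UMI, as did 11.7% (6.17 to 19.5) of 103 from the *Yap1* cKO. Among cells without one, it was 6.25% (1.31 to 17.2) and 12.3% (5.47 to 22.8). The intervals of cells with and without *Nodal* overlapped in either library. In nascent mesoderm-like cells, *Lefty2* was seen with *Nodal* in 28.6% (8.39 to 58.1) of 14 control cells against 77.1% (65.6 to 86.3) of the 70 without *Nodal*. The *Yap1* cKO shares were 44.4% (21.5 to 69.2) of 18 and 74.2% (63.8 to 82.9) of 89. The control intervals were apart and the *Yap1* cKO ones overlapped, and the difference was not tested. *Tdgf1*, which Nodal needs at the cell surface, was seen in 93.8% (84.8 to 98.3) and 93.2% (86.5 to 97.2) of Fgf8-positive cells with *Nodal*. Without *Nodal*, the shares were 81.25% (67.4 to 91.05) and 81.5% (70.0 to 90.1), and the intervals overlapped in either library.

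*Tdgf1* is the co-receptor that Nodal binds together with the activin receptors. It was at 39.9 CPM (473 UMIs) and 27.0 CPM (183 UMIs) in Fgf8-low epiblast-like cells, a ratio of 0.677 (0.567 to 0.804), and at 118 and 112 CPM in Fgf8-positive cells, a ratio of 0.942 (0.876 to 1.01). Over both parts, it was at 75.1 and 88.7 CPM, with a ratio of 1.18 (1.11 to 1.26), so the direction over all epiblast-like cells was opposite to that within each part. With the parts weighted by control cell numbers, the ratio was 0.861. In Fgf8-positive cells, the sexes differed, with 0.571 (0.509 to 0.642) among Y-bearing cells and 1.30 (1.16 to 1.44) among Xist-bearing ones.

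In the streak, *Tdgf1* was at 320 CPM (904 UMIs) and 249 CPM (1590 UMIs), a ratio of 0.779 (0.717 to 0.846), which was 0.412 (0.349 to 0.486) among Y-bearing cells and 0.990 (0.888 to 1.11) among Xist-bearing ones. Nascent mesoderm-like cells were at 573 and 532 CPM, with a ratio of 0.929 (0.890 to 0.969), and node cells at 435 and 462 CPM, 1.06 (0.957 to 1.18). The nascent mesoderm ratio was 1.097 (1.01 to 1.19) among Y-bearing cells and 0.972 (0.918 to 1.03) among Xist-bearing ones, so the pooled value lay below both. In Xist-bearing node cells it was 1.30 (1.12 to 1.52), with no Y-bearing *Yap1* cKO ones to compare. Every thinned streak-like cell had a *Tdgf1* UMI in both libraries. Sox17-positive cells had 589 and 347 CPM, with a ratio of 0.589 (0.519 to 0.667), below 1 in both sexes. Blood and endothelial progenitors were above control, at 121 and 195 CPM, 1.62 (1.43 to 1.84), where *Tdgf1* was the 1 of 2 genes with enough UMIs past 1.5-fold upward and 0 lay as far below, beside 3.87% and 2.47% of all genes. It was at 2.51 (2.09 to 3.01) among Y-bearing cells and 0.928 (0.769 to 1.12) among Xist-bearing ones. *Tdgf1* shares 8.25% of its 3' words with the pseudogene *Tdgf1-ps1*.

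Some cells in the extraembryonic gates carried embryonic genes. Of 112 *Yap1* cKO extraembryonic ectoderm-like cells, 8 had at least 50 CPM of the epiblast gene *Pou5f1*, and they held 45 of the 88 *Tdgf1* UMIs there, while 3 of 188 control cells did and held 6 of 21. The *Tdgf1* ratio in that population was 5.52 (3.40 to 9.36) with those cells and 3.93 (2.14 to 7.62), on 15 and 43 UMIs, without them, an alternative chosen after seeing the data. It was the 1 gene of 3 past 1.5-fold upward there, as 2.04% of all genes were, and 0 were as far below, as 1.32% were. On 21 and 88 UMIs, *Tdgf1* reached the minimum there mainly through the *Yap1* cKO library. A single *Yap1* cKO cell held 27 of the 88. Among Xist-bearing cells the ratio was 7.75 (3.18 to 24.55). Y-bearing cells had 15 and 0 UMIs, with an interval up to 1.28, so the higher level was not shared by the sexes. In the control visceral endoderm, 1 cell held 28 of the 29 *Lefty2* UMIs and 33 of the 58 *Tdgf1* UMIs came from 1 cell. The part of mixed droplets in these values was not tested.

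Among the other ligands, *Gdf3* (ENSMUSG00000030117, chromosome 6 from 122605403 to 122610087), which can signal through the same receptors, had 13 and 20 UMIs in epiblast-like cells, at levels of 0.605 and 0.797 CPM and a ratio of 1.32 (0.623 to 2.88). So few UMIs could not show a difference. *Gdf1* (ENSMUSG00000109523, chromosome 8 from 70329817 to 70331587), whose product pairs with Nodal, was listed at 0 in all 1829 and 1897 barcodes. All of its 1349 exonic bases lie within exons of *Cers1* on the same strand, so its reads cannot be assigned to it alone and the 0 says nothing about its expression. *Cers1* had 26 and 20 UMIs in epiblast-like cells.

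*Foxh1* (ENSMUSG00000033837, chromosome 15 from 76668225 to 76669948) was low in all populations. In epiblast-like cells, it was at 3.26 CPM (70 UMIs) and 2.55 CPM (64 UMIs), a ratio of 0.783 (0.549 to 1.11), and below 1 in both sexes and both parts. In Foxf1 and Hand1 mesoderm, where its control level was highest at 10.0 CPM, there were 28 UMIs in 37 control and 2 UMIs in 18 *Yap1* cKO cells, a ratio of 0.156 (0.0180 to 0.618). Blood and endothelial progenitors followed at 9.62 and 7.09 CPM, with a ratio of 0.736 (0.417 to 1.29).

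*Furin* (ENSMUSG00000030530, chromosome 7 from 80388585 to 80405436) and *Pcsk6* (ENSMUSG00000030513, chromosome 7 from 65861734 to 66050386) encode the convertases that process the Nodal precursor and are known to act from extraembryonic tissue. *Furin* was at 43.2 CPM (248 UMIs) and 52.1 CPM (831 UMIs) in visceral endoderm-like cells, a ratio of 1.21 (1.05 to 1.40), which was 1.001 with every cell thinned, 0.739 among Y-bearing cells and 1.19 among Xist-bearing ones. In epiblast-like cells, it was at 8.71 and 9.68 CPM, with a ratio of 1.11 (0.915 to 1.35). The nascent mesoderm-like cells had it at 7.12 CPM (45 UMIs) and 11.9 CPM (116 UMIs), a ratio of 1.67 (1.17 to 2.41), with 2.03 and 1.43 in the Y-bearing and the Xist-bearing cells. The streak leaned the same way, at 1.501 (0.933 to 2.51), with 2.77 among Y-bearing cells and 1.25 among Xist-bearing ones. There *Furin* was the 1 gene of 3 past 1.5-fold upward, against 1.13% of all genes, and 0 were as far below, against 3.58%. On 23 and 78 UMIs, *Furin* reached the minimum mainly through the *Yap1* cKO library. With the Sox17-positive cells kept in the streak, which held 46.5% of the control *Furin* UMIs, *Furin* was at 1.13 (0.770 to 1.67) and no longer past 1.5-fold, and *Tdgf1*, at 0.617 (0.578 to 0.660), was past it downward.

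*Pcsk6* was at 50.6 CPM (890 UMIs) and 43.7 CPM (583 UMIs) in extraembryonic ectoderm-like cells, a ratio of 0.863 (0.776 to 0.959), with 0.819 and 0.876 in the sexes. A *Pcsk6* UMI was seen in 74.0% (67.0 to 80.3) and 73.8% (64.5 to 81.9) of thinned cells. Epiblast-like cells had a lower level, at 6.89 CPM (148 UMIs) and 4.86 CPM (122 UMIs), a ratio of 0.706 (0.551 to 0.903). It was 0.437 (0.263 to 0.701) among Y-bearing cells and 0.835 among Xist-bearing ones. Neither convertase was past 1.5-fold in the population in which it was highest.

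A further 25 genes of the pathway were listed by role, of which 20 had enough UMIs in epiblast-like cells. *Gsc* and *Wnt3*, listed as Nodal-responsive, were among those at least 1.5-fold higher in the *Yap1* cKO library, and none was as far below, beside backgrounds of 1.34% and 1.99%. *Gsc*, a streak and organizer factor, was at 3.86 and 6.14 CPM, 1.59 (1.21 to 2.10), with 2.08 among Y-bearing cells and 1.38 among Xist-bearing ones. *Wnt3*, a streak-inducing ligand, was at 7.40 and 13.0 CPM, 1.76 (1.45 to 2.14), with 2.85 and 1.19 in the sexes. *Nanog*, a pluripotency factor on the same list, was at 1.39 (1.26 to 1.53). Within Fgf8-positive cells, *Gsc* was at 1.26 (0.927 to 1.73) and *Wnt3* at 1.17 (0.953 to 1.43), so neither stayed past 1.5-fold there.

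Of 7 receptors and Smads with enough UMIs in epiblast-like cells, 0 were past 1.5-fold, where 1.34% of all genes lay above and 1.99% below. So few genes cannot be set apart from that background. Their ratios ran from 0.721 (*Smad3*) to 1.29 (*Smad7*, an inhibitory Smad). The 5 nuclear partners ran from 0.842 to 1.21 and the 4 secreted or surface regulators from 0.961 to 1.45. Elsewhere the receptors and Smads ran from 0.644 to 1.11 in nascent mesoderm-like and from 0.714 to 1.54 in visceral endoderm-like cells. In the former 1 of 7 was past 1.5-fold downward, beside 1.46% of all genes, and in the latter 1 of 6 upward, beside 1.96%. In streak-like cells, 17 of the 25 listed genes had enough UMIs. Of these, 2 were past 1.5-fold upward and 1 downward, beside 1.13% and 3.58% of all genes. Their ratios with the Sox17-positive cells kept in the streak were not taken. *Foxa2*, a factor of endoderm and node precursors, was at 16.6 and 43.4 CPM, with a ratio of 2.61 (1.91 to 3.63), and *Cfc1*, a second co-receptor, at 1.64 (1.07 to 2.59). *Lhx1* was below control there, at 0.352 (0.271 to 0.456). The sexes did not share the first pair: *Foxa2* was at 0.765 among Y-bearing cells and 4.89 among Xist-bearing ones and *Cfc1* at 5.26 and 0.979, whereas *Lhx1* was at 0.0711 and 0.767.

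Over the 11 populations of both libraries, 22 points that share libraries and cells, the genes most like *Nodal* in log2(CPM + 1) were *2410080I02Rik*, *Arhgef26*, *Fgf5*, *Igfbp2* and *Oga*, with a Pearson's r from 0.857 to 0.794. Those most like *Lefty1* were *Cadps2*, *Fzd8*, *Cer1*, *Mecom* and *Six3* (0.940 to 0.874), and those most like *Lefty2* were *Rimbp2*, *A930007I19Rik*, *Dll1*, *Col19a1* and *Irx5* (0.863 to 0.798). The Sox17-positive cells gave the highest *Lefty1* points and were taken apart after *Cer1* and *Lefty1* had been seen. The likeness of *Lefty1* to *Cer1* was thus partly set by that choice.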

How the data were processed

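E7 embryos were profiled with the 10x 3' v3.1 kit. The authors made the deposited UMI counts with Cell Ranger 7.1.0 against mm10 (submitters' processing notes), 1 library per pooled genotype. Raw counts were used, without the free RNA correction of the study's methods. Barcodes with at least 5000 genes and at most 10% mitochondrial UMIs were kept, and scrublet (scanpy 1.11.5), run on all barcodes of a library, removed 1 control and 4 *Yap1* cKO barcodes. Cells were gated in order on summed CPM of marker lists, with thresholds set after the distributions were seen. UMIs were summed per population and library. Intervals (95%) are exact Poisson for CPM, conditional binomial for ratios and Clopper-Pearson for shares, and cover counting error only. For a count of 0, the limit printed is 3 counts of the total. A gene counted as past 1.5-fold needed at least 100 UMIs over both libraries. Thinning to 38000 UMIs dropped 26 shallower control cells and 48 from the *Yap1* cKO library. The genes named are the 9 members, *Yap1*, the pathway list where past 1.5-fold in epiblast-like cells, receptors and Smads as a range, and the 5 most similar genes for *Nodal*, *Lefty1* and *Lefty2*. A result of the pathway list is not reported here. Beyond that rule, *Cers1*, *Cer1*, *Nanog*, *Foxa2*, *Cfc1*, *Lhx1*, *Fgf8* and *Pou5f1* were added after their values were seen. The Fgf8 line and the Sox17 gate were drawn on single genes. Members and lists were chosen with earlier results of these data known. Coordinates are from GENCODE M21 (GRCm38) and promoter windows from RefSeq (GRCm38.p6). Ratios, their intervals and the 1.5-fold call were tested on Poisson counts simulated for the summed epiblast-like cells. Single cells were not simulated, so gating, thinning, doublet removal and sex calls were not tested. Alternatives covered gene, mitochondrial and UMI minimums, doublets, scaling, gates, thinning, sex and single cells. The study's methods describe the mouse controls also as floxed littermates without Cre.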

Additional observations from a re-analysis of the deposited data

Results flagged for a closer look

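Ratios of *Yap1* cKO to control lay past 1.5-fold in opposite directions in different populations for 3 genes. Each ratio needed at least 100 UMIs and a counting interval that left out 1. How many of all genes do so was not counted, so these 3 cannot be set against a background. With 1 library per genotype, the difference between populations was not tested. *Nodal* was at 1.78 in Fgf8-low epiblast-like and 1.85 in nascent mesoderm-like cells, and at 0.440 in visceral endoderm-like cells, where the ratio was 1.66 in Y-bearing cells. *Tdgf1* was at 1.62 in blood and endothelial progenitors and 5.52 in extraembryonic ectoderm-like cells, and at 0.589 in Sox17-positive embryonic cells. In Xist-bearing blood and endothelial progenitors it was at 0.928. Y-bearing extraembryonic ectoderm-like cells had 15 and 0 *Tdgf1* UMIs, while the Xist-bearing ones had a ratio of 7.75. *Lefty1* was at 2.86 in Fgf8-positive epiblast-like cells and at 0.583 in Sox17-positive embryonic cells, where Y-bearing cells had 2.59. With the Sox17-positive cells kept in, the *Lefty1* ratio in Fgf8-positive cells was 0.780 (0.577 to 1.06), so the opposite directions rest on gating those cells apart.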

How the results depend on the processing

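No paired analysis was possible because each genotype has a single library. Every ratio of *Nodal*, *Lefty1* and *Furin* in epiblast-like cells stayed above 1 and every ratio of *Foxh1* and *Pcsk6* below 1 under the 17 alternatives, of which the weighting of the Fgf8 parts and the handling of Sox17-positive cells were added after seeing the data. The ratios that left their 95% counting interval were as follows. In Y-bearing cells, *Nodal* was at 2.80, *Tdgf1* at 0.914, *Lefty2* at 1.05 and *Pcsk6* at 0.437. In Xist-bearing cells, *Nodal* was at 1.64, *Tdgf1* at 1.39 and *Lefty2* at 3.26. In Fgf8-low cells alone, *Nodal* was at 1.78, *Tdgf1* at 0.677, *Lefty1* at 1.09 and *Lefty2*, on 21 UMIs, turned to 0.411. In Fgf8-positive cells alone, *Nodal* was at 1.42 and *Tdgf1* at 0.942. With the Fgf8 parts weighted by control cell numbers, *Nodal* was at 1.49, *Tdgf1* at 0.861 and *Lefty2* at 1.38. Halved gate thresholds put *Tdgf1* at 1.29, and Sox17-positive cells kept in put *Lefty1* at 1.18. The cause was not tested.

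Elsewhere, the *Nodal* ratio in visceral endoderm-like cells turned to 1.66 in Y-bearing cells. Removing the cell with the most UMIs from each library moved *Lefty2* in the streak from 1.63 to 4.29. With a minimum of 20 UMIs, genes at least 1.5-fold higher made up 4.07% in epiblast, 4.97% in streak, 6.57% in nascent mesoderm and 5.41% in visceral endoderm-like cells, and genes as far below 5.89%, 9.20%, 4.53% and 8.0%. With a minimum of 300 UMIs, these were 0.511%, 0.391%, 0.470% and 0.748%, and 0.977%, 1.24%, 0.551% and 1.04%. Of the 9 genes, 3 had as many UMIs in epiblast-like cells, and *Nodal* was the 1 of these past 1.5-fold. *Lefty1* and *Lefty2* had too few UMIs to enter that count. Depth limits *Gdf3*, with 13 and 20 UMIs in these cells.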

Other observations

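In barcodes with fewer than 1000 genes, which can hold mostly free RNA, *Tdgf1* was at 70.7 CPM (49 UMIs) in the control and 21.8 CPM (10 UMIs) in the *Yap1* cKO library. *Lefty2* had 12 and 1 UMIs there, *Nodal* 0 and 3, and *Lefty1* 0 in both.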
